A study of Mus musculus with 14 samples.

Results

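The 32 genes described here encode the fatty acid oxidation machinery of the hepatocyte and its links to peroxisomes and ketone bodies. They were chosen by gene symbol and are 32 of the 21878 genes in the count and FPKM tables. All 32 also passed the filter on low counts, which kept 14100 genes for testing. By role they comprised 3 regulators (Ppara, Pdk4 and Vnn1), 17 genes of the mitochondrial pathway, 2 enzymes found in both mitochondria and peroxisomes (Ech1 and Eci2) and 8 peroxisomal genes. A cytosolic thioesterase (Acot12) and a ketone body enzyme (Bdh1) made up the remainder.

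RNA-seq was available for 14 libraries of C57BL/6 mouse hepatocytes from liver, in 7 groups of 2. FH were freshly isolated hepatocytes, and FH Yap-/- were freshly isolated hepatocytes labelled as deleted for the transcriptional coactivator Yap. BM 1D, BM 3D and BM 3W were hepatocytes cultured under the condition labelled BM for 1 day, 3 days and 3 weeks, and BM 3W Yap-/- were Yap-/- hepatocytes after 3 weeks in the same condition. LBDXL 3W were hepatocytes after 3 weeks in the condition labelled LBDXL. The series concerns the maintenance of hepatocyte functions in vitro when the activation of Yap by mechanical tension is inhibited. The labels do not say what BM and LBDXL stand for, how and in which cells Yap was deleted, how old the animals were, or whether the libraries within a group were separate animals, separate cultures or neither. The p-values therefore measure only the spread between these libraries, which may be technical.

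Hepatocytes take up fatty acids, activate them to acyl-CoA and pass long chains through the carnitine shuttle into mitochondria, where each turn of beta-oxidation uses a dehydrogenase, a hydratase, a hydroxyacyl-CoA dehydrogenase and a thiolase. Peroxisomes shorten very long and branched chains and bile acid intermediates with a separate set of enzymes. Acetyl-CoA from oxidation feeds ketone body synthesis in the fasted liver, and the nuclear receptor PPAR-alpha, encoded by Ppara, is the main activator of many of these genes.

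Libraries held 15501005 to 21220365 counts. Levels are given as CPM, the counts of a gene scaled to the TMM-adjusted library size, with library 1 first and library 2 second. Yap1, the targeted gene, was at 87.6 and 97.6 CPM in FH and 23.1 and 26.5 in FH Yap-/-, and at 80.2 and 95.5 in BM 3W and 6.66 and 7.75 in its Yap-/- counterpart. It was thus lower but not at 0 in both Yap-/- groups, and more remained in the fresh cells. The summed level of 9 hepatocyte markers was 199129 to 203246 CPM in FH and 232896 to 243073 in FH Yap-/-. It was 58759 to 66806 CPM in BM 1D, 35075 to 81953 in BM 3D, 100002 to 115827 in BM 3W Yap-/- and 166852 to 209473 in LBDXL 3W. In BM 3W it was 32777 in library 1 and 3396 in library 2, so the second BM 3W library stands apart. Most of the sum was Alb alone in every library, at 155088 and 149910 CPM in FH and 186886 and 129833 in LBDXL 3W. Mean levels were lower in LBDXL 3W than in FH for Ttr (2211 against 7180 CPM) and every other marker except Alb and Apoa1. Within LBDXL 3W, Alb was higher in library 1 and each of the other markers in library 2. Summed markers of several other cell types were highest in BM 3W. Summed stellate cell and fibroblast markers (9 genes) were 7532 to 9921 CPM there against 86.8 to 106 in FH, 410 to 485 in BM 3W Yap-/- and 279 to 508 in LBDXL 3W. Summed cholangiocyte markers (7 genes, of which Cftr was at 0 counts in both FH libraries) were 4484 to 5188 CPM in BM 3W against 44.2 to 47.9 in FH, 113 to 143 in BM 3W Yap-/- and 33.7 to 60.6 in LBDXL 3W. Most of the BM 3W sum was Spp1 alone, at 4338 and 5038 CPM, while Krt19 was at 21.5 and 16.9 and Epcam at 1.89 and 2.04. All 6 cholangiocyte markers tested rose in BM 3W against FH. Summed Kupffer cell and macrophage markers (8 genes) were 772 to 939 CPM in BM 3W, 73.4 to 101 in FH and 1.96 to 2.66 in LBDXL 3W. In FH Yap-/- they were 138 to 155 CPM, so both this sum and the hepatocyte sum lay above FH there without overlap. Of these 8 genes, 6 rose and 2 fell in BM 3W against FH. Endothelial markers (7 genes) went the other way, at 89.3 to 114 CPM in FH, 76.7 to 153 in BM 1D, 126 to 203 in BM 3D, 10.4 to 12.9 in BM 3W and 1.21 to 1.31 in BM 3W Yap-/-. In LBDXL 3W they were at 139 in library 1 and 3.62 in library 2, so these 2 libraries also stand apart from each other. In bulk RNA, fewer hepatocytes and less RNA of these genes per hepatocyte cannot be told apart. The part of the other cell types in the values below was not tested.

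Most of the 32 genes were lower in each of the 5 groups of cultured hepatocytes than in FH. The 32 genes together held 0.890 to 0.892% of the counts in FH, 0.179 to 0.263% in BM 1D, 0.292 to 0.317% in BM 3D and 0.209 to 0.245% in BM 3W. They held 0.316 to 0.347% in BM 3W Yap-/-, 0.353 to 0.498% in LBDXL 3W and 1.07 to 1.10% in FH Yap-/-. The median gene stood at 16.3% of its FH level in BM 1D, 23.8% in BM 3D and 14.3% in BM 3W. The medians were 27.7% in BM 3W Yap-/-, 39.5% in LBDXL 3W and 121% in FH Yap-/-. BM 3W was the lowest of the 7 groups for 18 genes and BM 1D for 12, while FH Yap-/- was the highest for 24 and FH for 6. Replicates were closest in FH, where the higher library exceeded the lower by a median factor of 1.03, and furthest apart in LBDXL 3W, where that factor was 1.59 and reached 13.4 for Acaa1b. The second LBDXL 3W library, the one with few endothelial transcripts, was the higher for 25 of the 32 genes.

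**Figure D1:**
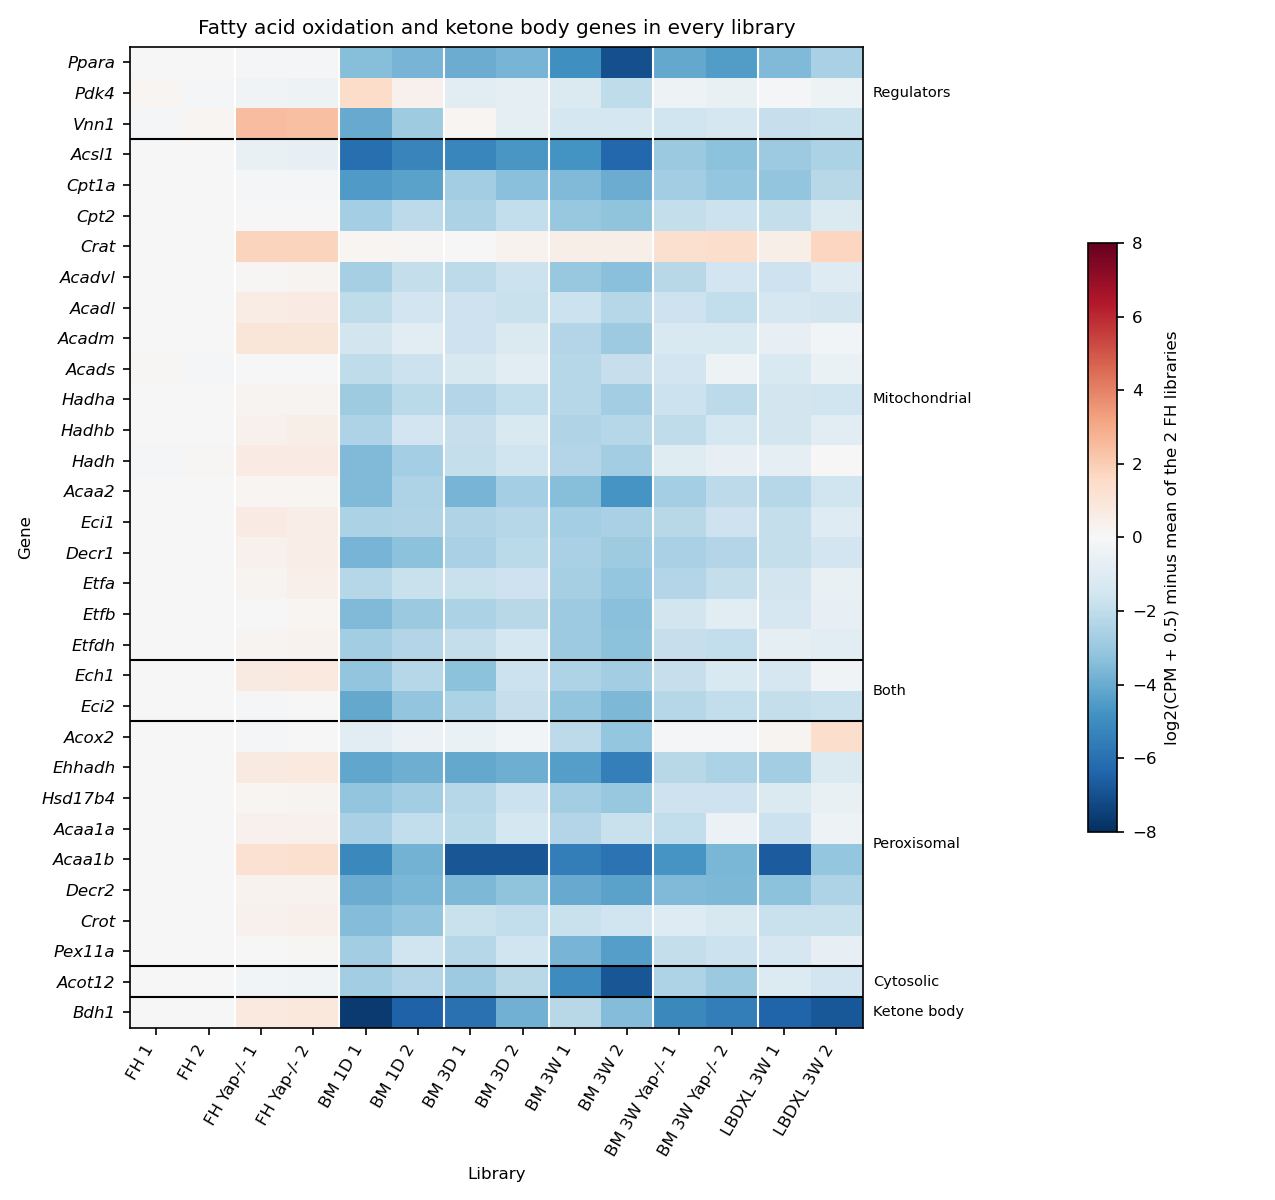
Level of the 32 genes (rows, by role) in the 14 libraries (columns), as log2(CPM + 0.5) minus the mean of the 2 FH libraries. Most genes lie below FH in every cultured library, with BM 3W the lowest group for 18 genes, while Crat, Acox2, Pdk4, Vnn1 and Bdh1 follow other patterns.

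Within BM culture nearly all of the genes fell, and the fall was already present after 1 day. In BM 1D against FH, 29 of the 32 genes fell and 1 rose, with a median log2 fold change of -2.62, by edgeR's quasi-likelihood test at a Benjamini-Hochberg adjusted p under 0.05. Over all 14100 genes, 20.2% fell and 23.6% rose in that comparison, with a median of 0.17. Beside them, 6 of 9 hepatocyte markers fell in BM 1D. In BM 3D against FH, 28 genes fell and the other 4 did not pass (median -2.07), against 17.9% of all genes that fell and 22.5% that rose (median 0.17). In BM 3W against FH, 31 genes fell and 1 did not pass (median -2.81), against 26.1% of all genes that fell and 33.0% that rose (median 0.17). All 9 hepatocyte markers also fell in BM 3W, with a median of -4.05. Without the second BM 3W library, 31 of the 32 genes still fell. These 3 comparisons share the FH libraries.

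Of the 17 mitochondrial genes, 16 fell at each of the 3 times, with medians of -2.48, -1.88 and -2.75. Crat was the gene that did not pass. Of the 8 peroxisomal genes, 7 fell at 1 day and 3 days and 8 at 3 weeks, with medians of -3.12, -1.96 and -3.50. Ech1 and Eci2 fell at all 3 times. From 1 day to 3 days of BM culture, 6 genes rose (Vnn1, Cpt1a, Hadh, Decr1, Eci2 and Crot) and 1 fell (Pdk4), against 3.67% of all genes that rose and 1.60% that fell. That count was 1 without the first BM 1D library, 3 without the second BM 3D library, 4 without any 1 of the FH or FH Yap-/- libraries, and 0 with only the BM 1D and BM 3D libraries in the edgeR fit, where 13 genes had an unadjusted p under 0.05. DESeq2 called 11. From 3 days to 3 weeks, 12 genes fell and the other 20 did not pass, against 10.9% of all genes that fell and 13.5% that rose. The 12 were Ppara, Vnn1, Cpt2, Acadvl, Acadm, Etfa, Etfdh, Eci2, Acox2, Hsd17b4, Pex11a and Acot12. Leaving out the second BM 3W library kept 4 falls, and leaving out the second BM 3D library gave 5 falls and 1 rise. With DESeq2 size factors in place of TMM scaling, 8 fell and 1 (Bdh1) rose.

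After 3 weeks in LBDXL, 27 of the 32 genes had a mean level between those of FH and BM 3W. Vnn1, Crot and Bdh1 were below both, and Crat and Acox2 were above both. Against FH, 19 genes fell and 1 (Crat) rose, with a median log2 fold change of -1.34, while 9.60% of all genes fell and 11.7% rose (median 0.09). The 12 genes that did not pass were Pdk4, Acadm, Acads, Hadh, Etfa, Etfb, Ech1, Acox2, Hsd17b4, Acaa1a, Pex11a and Acot12. The 9 hepatocyte markers had a median of -0.84 in the same comparison. Against BM 3W, 25 genes rose and 1 (Bdh1) fell, with a median of 1.72, while 21.1% of all genes rose and 23.7% fell (median -0.02). Of the 17 mitochondrial genes 15 rose, with a median of 1.65, and of the 8 peroxisomal genes 5 rose, with a median of 1.93. The 6 that did not pass were Vnn1, Crat, Acadl, Acaa1a, Acaa1b and Crot. All 9 hepatocyte markers rose in the same comparison, and 8 of 9 stellate cell and 6 of 6 tested cholangiocyte markers fell. Without the second BM 3W library, 19 genes rose and 1 fell. Leaving out the first or the second LBDXL library gave 26 or 20 rises over BM 3W, and 14 or 21 falls against FH. With scaling by total counts alone 15 rose and 3 fell (Bdh1, Crot and Vnn1), a setting that lowers the median of all genes by 0.82 in this comparison.

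**Figure D2:**
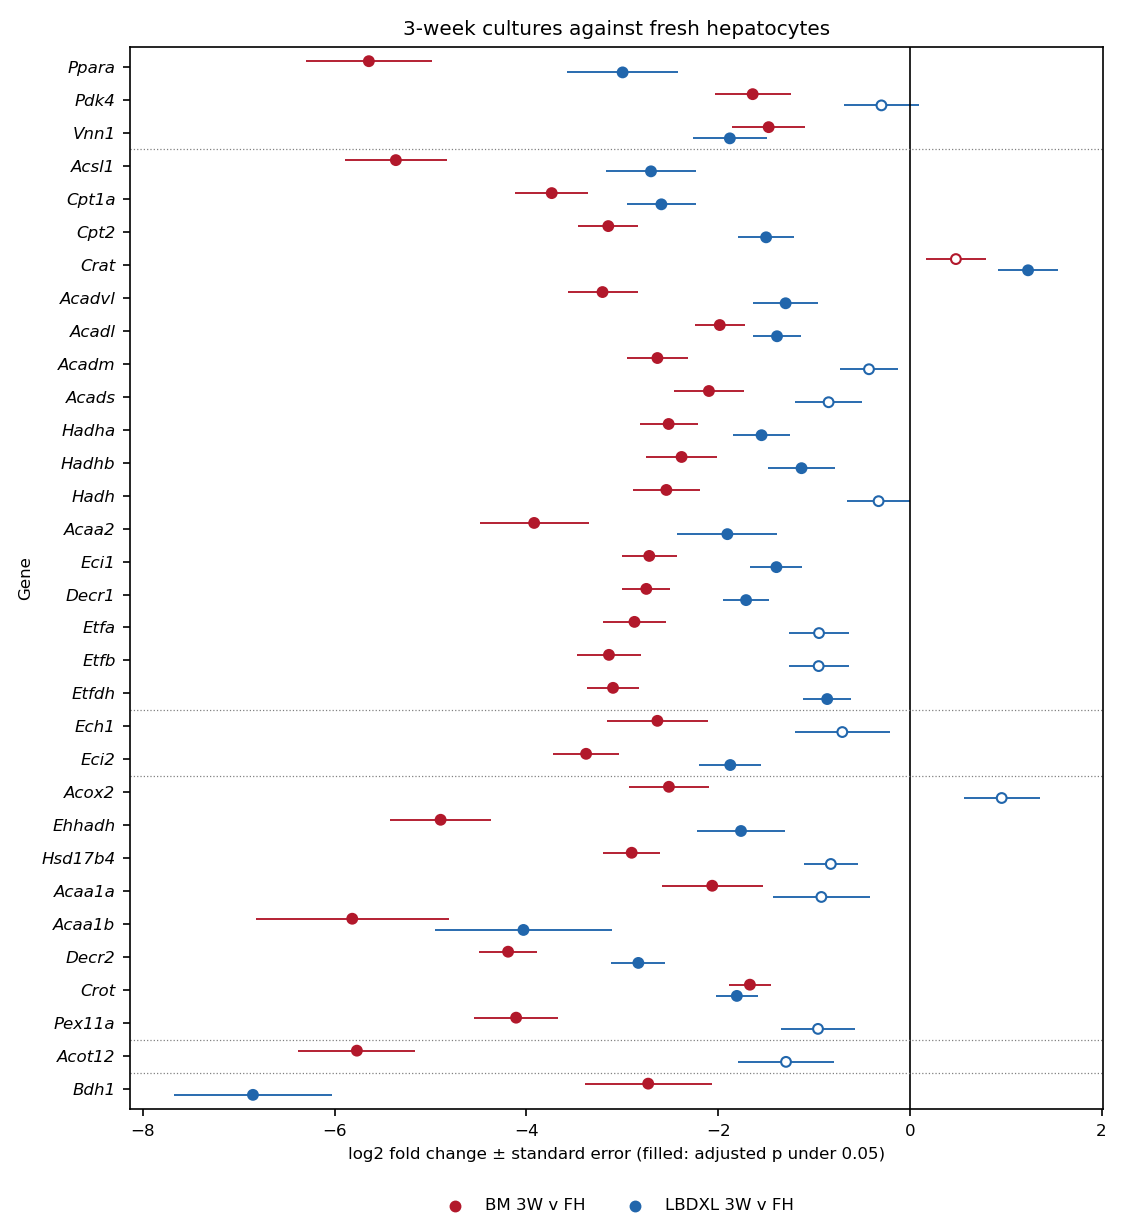
Log2 fold change against FH with its standard error for each gene in BM 3W and LBDXL 3W, with filled points at an adjusted p under 0.05. All genes but Crat fell in BM 3W, and 19 fell in LBDXL 3W.

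More of the genes rose than fell in Yap-/- hepatocytes after culture. After 3 weeks of BM culture, 17 genes rose and 1 (Bdh1) fell in Yap-/- cells against BM 3W, with a median log2 fold change of 1.21, while 15.0% of all genes rose and 16.6% fell (median -0.03). The 17 included 10 of 17 mitochondrial and 4 of 8 peroxisomal genes. Beside them, 6 of 9 hepatocyte markers rose and 9 of 9 stellate cell markers fell. The count of 18 dropped to 9 without the second BM 3W library and to 10 without the second BM 3W Yap-/- library, and it was 9 with scaling by total counts, which lowers the median of all genes by 0.64. The level stayed short of fresh Yap-/- cells. In BM 3W Yap-/- against FH Yap-/-, 27 genes fell and 5 did not pass, with a median of -2.17, while 16.5% of all genes fell and 19.8% rose. Beside them, 3 of 9 hepatocyte and 7 of 7 endothelial markers fell, and 7 of 9 stellate cell and 3 of 6 cholangiocyte markers rose.

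In freshly isolated cells, 2 genes (Vnn1 and Crat) rose and the other 30 did not pass in FH Yap-/- against FH, while 0.489% of all genes rose and 0.454% fell. In this comparison the test borrows its spread from all 14 libraries, most of which are cultures with a wider spread than the fresh cells. Leaving out any 1 of the 4 fresh libraries left 0 calls by edgeR, with 3 genes reaching an unadjusted p under 0.05, while DESeq2 passed 2 genes on all libraries. With only the 4 fresh libraries in the fit, 21 genes rose, 4 fell and 7 did not pass, against 18.1% of the 11356 genes tested there that rose and 19.4% that fell. Both FH Yap-/- libraries lay above both FH libraries for 24 genes and below them for 6. The same count was not made over all genes, so it does not set these genes apart from others. The difference between the Yap-/- effect in BM 3W and in fresh cells was itself tested as an interaction, in which 5 genes had a positive and 2 a negative term, against 8.04% and 8.84% of all genes. Those 7 genes are Acot12, Acsl1, Acox2, Pex11a and Etfb on the positive side and Bdh1 and Vnn1 on the negative. With scaling by total counts 3 terms were positive and 4 negative. The count was 1 without either FH Yap-/- library, 3 without either FH library and 4 without the second BM 3W or second BM 3W Yap-/- library.

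**Figure D3:**
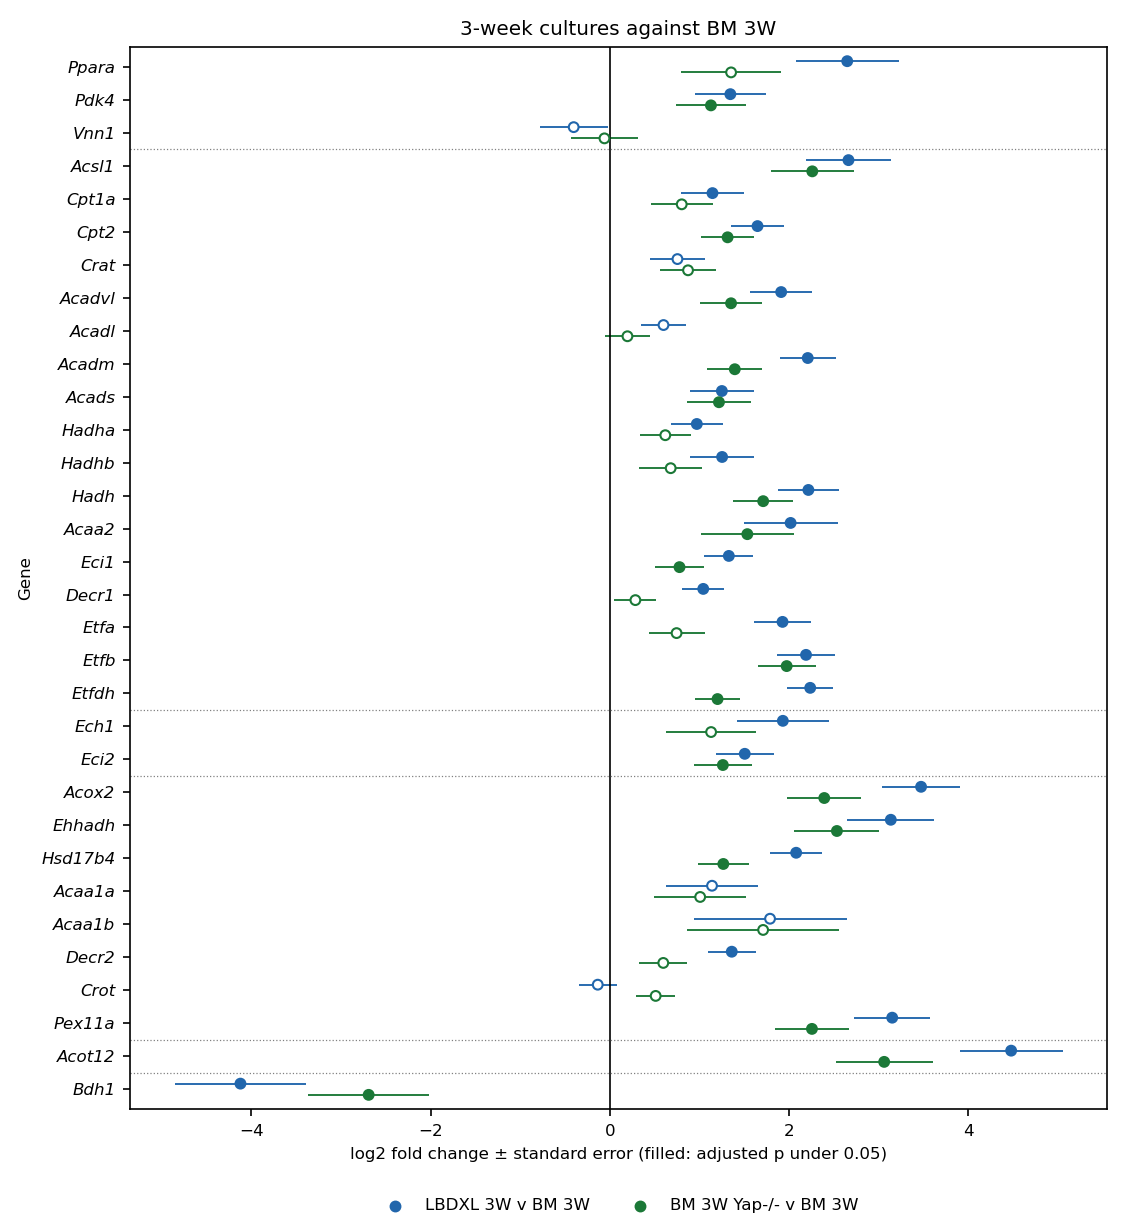
Log2 fold change against BM 3W with its standard error for each gene in LBDXL 3W and BM 3W Yap-/-, with filled points at an adjusted p under 0.05. 25 genes rose in LBDXL 3W and 17 in BM 3W Yap-/-, and Bdh1 fell in both.

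The regulators fell into separate patterns. Ppara (chromosome 15, 85734910 to 85806851 on GRCm38.p6) stood at 713 and 717 CPM in FH and 656 and 635 in FH Yap-/-, at 66.2 and 52.8 in BM 1D, 45.05 and 53.99 in BM 3D and 23.7 and 4.97 in BM 3W. It was at 41.2 and 31.8 CPM in BM 3W Yap-/-, with 61.7 and 118 in LBDXL 3W. Every cultured library was below every fresh one, and the second BM 3W library was the lowest of all. On the log2 scale Ppara fell by 3.59 ± 0.60 (adjusted p = 7.91e-04) in BM 1D and 5.64 ± 0.66 (adjusted p = 5.07e-05) in BM 3W against FH. In LBDXL 3W it fell by 3.00 ± 0.58 (adjusted p = 0.00493) against FH and rose by 2.65 ± 0.58 (adjusted p = 0.00406) against BM 3W. The higher LBDXL level did not pass when only the compared groups entered the fit (adjusted p = 0.0664), and it was 4.17 (adjusted p = 2.28e-04) without the first BM 3W library and 1.92 (adjusted p = 0.00746) without the second. The fall in BM 3W against FH was likewise -7.17 and -4.92. The difference between BM 3W Yap-/- and BM 3W was 1.35 ± 0.55 (adjusted p = 0.0836) and did not pass.

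Pdk4 encodes the kinase that switches off pyruvate dehydrogenase and so spares glucose while fat is burned. It was at 17.6 and 14.5 CPM in FH, 45.9 and 20.6 in BM 1D, 8.34 and 8.96 in BM 3D and 6.82 and 3.47 in BM 3W, and at 12.1 and 10.4 in BM 3W Yap-/-, with 14.4 and 11.7 in LBDXL 3W. The BM 1D libraries were the highest of all 14, and the first stood well above the second. It rose by 1.05 ± 0.39 (adjusted p = 0.0471) in BM 1D, but without the first BM 1D library the difference was 0.36 (adjusted p = 0.503). It then fell by 1.94 ± 0.40 (adjusted p = 0.0213) from 1 day to 3 days, which was -1.24 (adjusted p = 0.137) without that library.

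Vnn1 encodes vanin-1, a pantetheinase that returns the building block of coenzyme A. Its levels were 24.1 and 28.8 CPM in FH, 149 and 145 in FH Yap-/-, 1.17 and 3.28 in BM 1D, 29.6 and 15.9 in BM 3D and 9.53 and 9.52 in BM 3W. BM 3W Yap-/- held 8.46 and 9.81 CPM and LBDXL 3W 7.08 and 7.31. The FH Yap-/- libraries were the highest, the BM 1D libraries the lowest, and BM 3D overlapped FH. Vnn1 rose by 2.48 ± 0.39 (adjusted p = 0.0167) in fresh Yap-/- cells, fell by 3.58 ± 0.42 (adjusted p = 1.04e-04) in BM 1D against FH and rose by 3.36 ± 0.42 (adjusted p = 0.00389) from 1 day to 3 days. The rise in FH Yap-/- did not pass once any 1 fresh library was left out, with log2 values of 2.35 to 2.62. Without the second BM 1D library, the fall in BM 1D was -4.48 and the later rise 4.27.

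**Figure D4:**
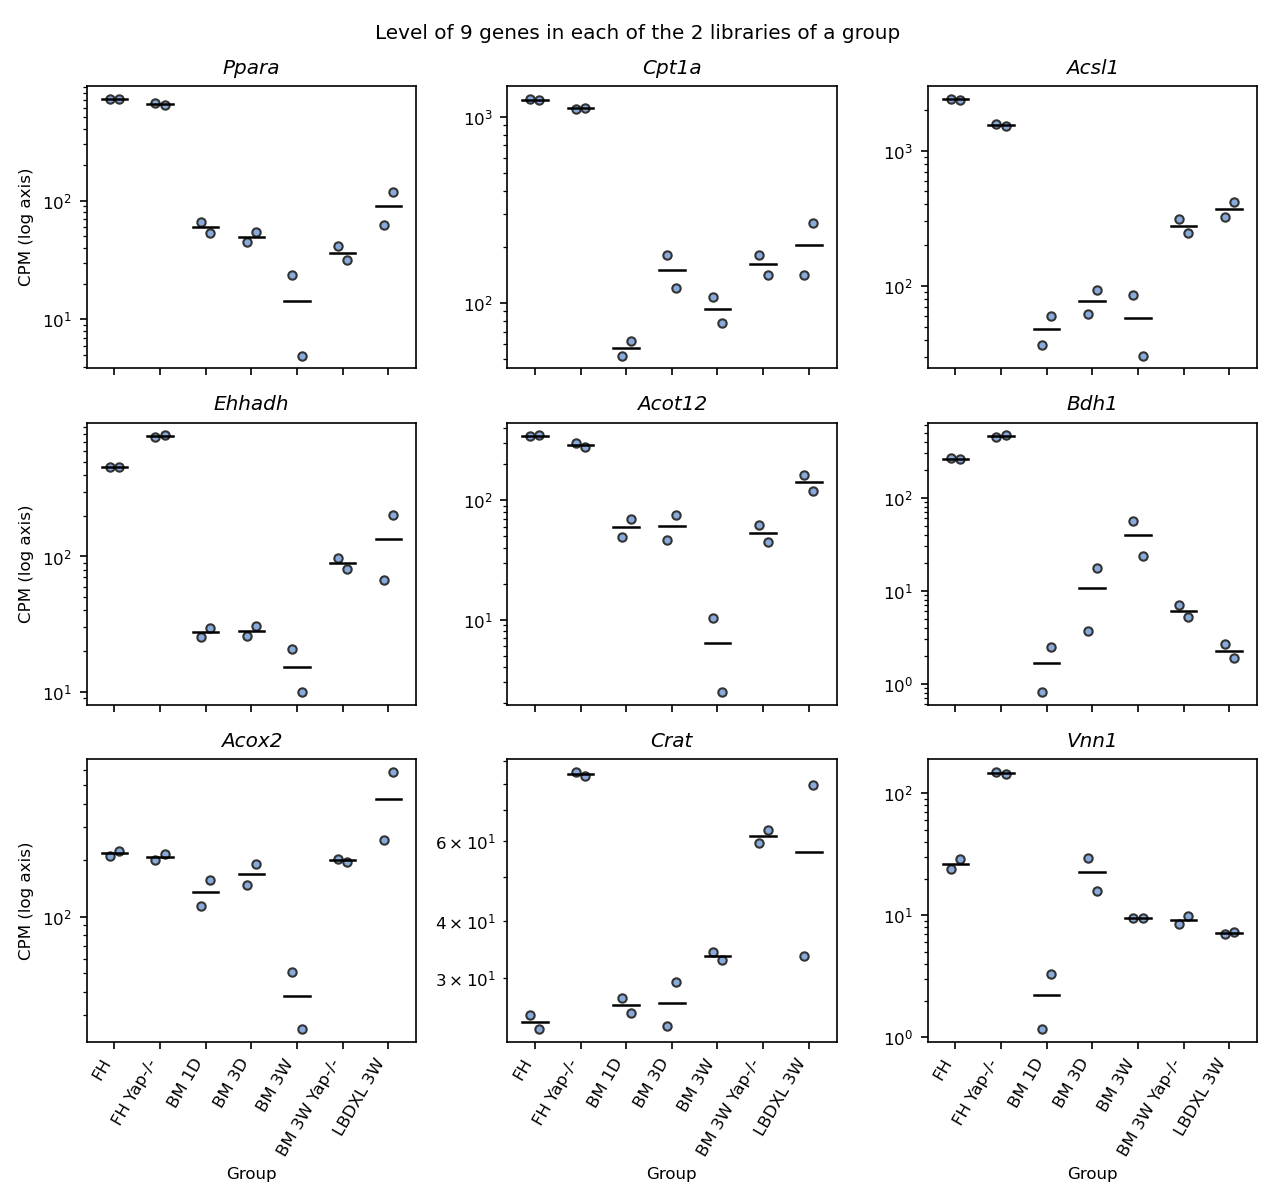
CPM (log axis) of Ppara, Cpt1a, Acsl1, Ehhadh, Acot12, Bdh1, Acox2, Crat and Vnn1 in the 7 groups, with 1 point per library and a line at the mean of each group. Ppara, Cpt1a, Acsl1, Ehhadh and Acot12 lie below FH in every cultured library. Bdh1 is higher in BM 3W than in the other cultures, and Acox2 and Crat stay near or above FH in LBDXL 3W.

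Acsl1, the long-chain acyl-CoA synthetase that activates fatty acids at the entry to the pathway, fell in every culture. By FPKM, which allows genes to be compared per length, Acsl1 ranked 3 among the 32 genes in FH (mean 193 FPKM) and 23 in BM 3W (mean 11.3 FPKM). Its CPM was 2405 and 2373 in FH, 1569 and 1514 in FH Yap-/-, 36.8 and 59.9 in BM 1D, 62.8 and 93.2 in BM 3D and 85.5 and 30.8 in BM 3W. BM 3W Yap-/- was at 310.3 and 246 CPM and LBDXL 3W at 321 and 414, above both BM 3W libraries and below all fresh ones. Acsl1 fell by 5.63 ± 0.54 (adjusted p = 3.43e-05) in BM 1D and fell by 5.36 ± 0.53 (adjusted p = 2.12e-05) in BM 3W against FH. Against BM 3W it rose by 2.66 ± 0.47 (adjusted p = 0.00130) in LBDXL 3W and rose by 2.26 ± 0.46 (adjusted p = 0.00496) in BM 3W Yap-/-. Without the first BM 3W library, the 3 values that involve BM 3W were -6.28, 3.58 and 3.18.

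Cpt1a encodes the carnitine palmitoyltransferase of the outer mitochondrial membrane, the step that controls the entry of long chains. It was at 1247 and 1223 CPM in FH, 1105 and 1119 in FH Yap-/-, 52.04 and 62.5 in BM 1D, 179.8 and 120.0 in BM 3D and 108 and 77.5 in BM 3W. It was at 181 and 142 CPM in BM 3W Yap-/-, with 140.4 and 269 in LBDXL 3W. The lowest libraries were those of BM 1D, and BM 3D, BM 3W Yap-/- and LBDXL 3W overlapped each other. Cpt1a fell by 4.43 ± 0.39 (adjusted p = 2.46e-05) in BM 1D and fell by 3.74 ± 0.38 (adjusted p = 2.38e-05) in BM 3W. The rise in LBDXL 3W over BM 3W, 1.14 ± 0.35 (adjusted p = 0.0205), was 0.60 (adjusted p = 0.206) without the second LBDXL library and 0.93 (adjusted p = 0.123) without the second BM 3W library. Between BM 3W Yap-/- and BM 3W the difference was 0.80 ± 0.34 (adjusted p = 0.0970) and did not pass. Cpt2, the palmitoyltransferase of the inner membrane, was at 199 and 199.9 CPM in FH, 24.1 and 21.02 in BM 3W, 51.9 and 60.2 in its Yap-/- counterpart and 53.2 and 88.1 in LBDXL 3W. It fell by 3.15 ± 0.31 (adjusted p = 2.09e-05) in BM 3W and rose by 1.65 ± 0.30 (adjusted p = 0.00140) in LBDXL 3W over BM 3W.

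Crat, the acetyltransferase that moves short acyl groups between coenzyme A and carnitine, did not pass against FH at any time of BM culture. It stood at 24.9 and 23.3 CPM in FH, 27.1 and 25.3 in BM 1D, 23.6 and 29.5 in BM 3D and 34.2 and 32.97 in BM 3W. The levels were 84.95 and 83.2 CPM in FH Yap-/-, 59.4 and 63.5 in BM 3W Yap-/-, with 33.7 and 79.6 in LBDXL 3W. Both Yap-/- groups lay above their controls without overlap, and the LBDXL libraries were far apart. Crat rose by 1.80 ± 0.32 (adjusted p = 0.0270) in FH Yap-/-, while the difference in BM 3W Yap-/- was 0.87 ± 0.31 (adjusted p = 0.0533) and did not pass. Against FH, the difference in BM 3W was 0.48 ± 0.31 (adjusted p = 0.206), with a 95% interval (t distribution, 7 residual degrees of freedom) of -0.26 to 1.22. The rise in LBDXL 3W over FH, 1.23 ± 0.32 (adjusted p = 0.0188), was 0.49 (adjusted p = 0.120) without the second LBDXL library. Scaling by total counts put Crat higher in BM 3W than in FH at an adjusted p of 3.50e-04. Crat also shares 27 to 59 exonic bases with genes on the opposite strand.

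The 4 acyl-CoA dehydrogenases, which take the first step of each turn for chains of decreasing length, fell together in BM culture. Acadvl (very long chains) fell from 515 and 499.7 CPM in FH to 61.4 and 48.5 in BM 3W, by 3.21 ± 0.37 (adjusted p = 4.48e-05) on the log2 scale. Acadl (long chains) went from 321 and 337 to 100.1 and 66.4 CPM and fell by 1.98 ± 0.26 (adjusted p = 9.79e-05). Acadm (medium chains) was at 389.7 and 391 CPM in FH, 748 and 769 in FH Yap-/-, 75.3 and 50.5 in BM 3W, 164 and 166 in its Yap-/- counterpart and 248 and 333 in LBDXL 3W. The LBDXL libraries lay just below FH and without overlap with BM 3W. Acadm rose by 2.21 ± 0.31 (adjusted p = 3.73e-04) in LBDXL 3W over BM 3W and rose by 1.39 ± 0.31 (adjusted p = 0.00681) in BM 3W Yap-/-, while LBDXL 3W differed from FH by -0.43 ± 0.30 (adjusted p = 0.349). Acads (short chains) was at 141 and 122 CPM in FH and 26.00 and 35.4 in BM 3W. Acadl was the dehydrogenase that did not pass between BM 3W and either LBDXL 3W (0.60 ± 0.25 (adjusted p = 0.0744)) or BM 3W Yap-/- (0.20 ± 0.25 (adjusted p = 0.578)).

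Electrons from these enzymes pass through the electron transfer flavoprotein, made of the subunits Etfa and Etfb, to its dehydrogenase Etfdh in the inner membrane. Etfb was the second most abundant of the 32 transcripts per length in FH (mean 211 FPKM). It stood at 280.0 and 293 CPM in FH, 24.2 and 35.6 in BM 1D, 48.4 and 62.3 in BM 3D, 37.9 and 27.2 in BM 3W, 102 and 153 in its Yap-/- counterpart and 112 and 185 in LBDXL 3W. Both LBDXL 3W and BM 3W Yap-/- lay above BM 3W without overlap. Etfb fell by 3.14 ± 0.34 (adjusted p = 3.15e-05) in BM 3W against FH and rose by 1.97 ± 0.32 (adjusted p = 0.00170) in BM 3W Yap-/- over BM 3W. Etfa was at 346 and 357 CPM in FH, 55.6 and 40.5 in BM 3W and 68.8 and 92.1 in its Yap-/- counterpart, where the difference from BM 3W was 0.74 ± 0.31 (adjusted p = 0.0902) and did not pass. Etfdh was at 384 and 419 CPM in FH, 53.6 and 40.2 in BM 3W, 112 and 104 in its Yap-/- counterpart and 232 and 209.5 in LBDXL 3W, and rose by 2.23 ± 0.26 (adjusted p = 1.27e-04) in LBDXL 3W over BM 3W.

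Hadha and Hadhb encode the alpha and beta subunits of the mitochondrial trifunctional protein, which carries the last 3 steps of long-chain oxidation. Their RefSeq start sites lie 272 bases apart on chromosome 5 of GRCm38.p6 (30154980 for Hadha on the minus strand and 30155253 for Hadhb on the plus strand), so the 2 genes diverge from a shared region. The pair moved together, as did most of the mitochondrial genes. The stretch of the shared region outside the annotated exons of both genes is shown 5' to 3' on the plus strand, and 69.4% of its 85 bases are G or C.
Hadha and Hadhb shared start region, chr5:30155163-30155247: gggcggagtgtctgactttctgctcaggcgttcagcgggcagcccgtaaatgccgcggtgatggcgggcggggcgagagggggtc
Hadha was at 697 and 696 CPM in FH, 96.8 and 154 in BM 1D, 144 and 99.4 in BM 3W, 207 and 166 in its Yap-/- counterpart and 250.1 and 227 in LBDXL 3W. Hadhb was at 198 and 211 CPM in FH, 36.9 and 70.97 in BM 1D, 37.5 and 40.97 in BM 3W, 50.3 and 75.2 in its Yap-/- counterpart and 72.3 and 115 in LBDXL 3W. Hadha fell by 2.52 ± 0.30 (adjusted p = 5.95e-05) in BM 3W against FH and Hadhb fell by 2.38 ± 0.37 (adjusted p = 2.80e-04). Over BM 3W, Hadha rose by 0.97 ± 0.29 (adjusted p = 0.0190) and Hadhb rose by 1.25 ± 0.35 (adjusted p = 0.0151) in LBDXL 3W, and neither passed with scaling by total counts or without the second BM 3W library. In BM 3W Yap-/- the differences were 0.62 ± 0.29 (adjusted p = 0.122) for Hadha and 0.68 ± 0.35 (adjusted p = 0.160) for Hadhb, and neither passed.

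Hadh, the hydroxyacyl-CoA dehydrogenase for shorter chains, stood at 316 and 347 CPM in FH, 27.8 and 49.7 in BM 1D, 87.7 and 109.6 in BM 3D, 65.6 and 48.5 in BM 3W, 167 and 206 in its Yap-/- counterpart and 196 and 333 in LBDXL 3W. The LBDXL 3W range overlapped that of FH and lay above that of BM 3W. Hadh rose by 2.21 ± 0.34 (adjusted p = 6.14e-04) in LBDXL 3W and rose by 1.71 ± 0.34 (adjusted p = 0.00423) in BM 3W Yap-/- over BM 3W, and LBDXL 3W differed from FH by -0.33 ± 0.33 (adjusted p = 0.523). Acaa2, the mitochondrial thiolase, had the highest FPKM of the 32 genes in FH (mean 384 FPKM) and ranked 1 or 2 in each of the 7 groups. Its level went from 929 and 928 CPM in FH to 88.04 and 34.8 in BM 3W, with 139 and 216 in BM 3W Yap-/-, with 192 and 305 in LBDXL 3W. It fell by 3.92 ± 0.57 (adjusted p = 1.91e-04) in BM 3W against FH and rose by 2.02 ± 0.53 (adjusted p = 0.0103) in LBDXL 3W over BM 3W, which was 1.50 (adjusted p = 0.0715) without the second BM 3W library and 2.84 (adjusted p = 0.00666) without the first.

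The auxiliary enzymes rearrange double bonds of unsaturated chains. Decr1, the mitochondrial dienoyl-CoA reductase, fell from 256 and 249 CPM in FH to 18.9 and 25.4 in BM 1D and stood at 41.7 and 56.7 in BM 3D, 40.5 and 34.6 in BM 3W, 41.5 and 49.9 in its Yap-/- counterpart and 67.4 and 87.2 in LBDXL 3W. It fell by 3.51 ± 0.26 (adjusted p = 1.04e-05) in BM 1D and rose by 1.15 ± 0.24 (adjusted p = 0.0223) from 1 day to 3 days. Eci1, an enoyl-CoA isomerase of mitochondria, was at 92.7 and 99.3 CPM in FH, 14.03 and 15.2 in BM 3W and 25.7 and 47.5 in LBDXL 3W. Eci2, an isomerase of both organelles, was at 359 and 362 CPM in FH, 20.8 and 40.6 in BM 1D, 63.2 and 99.8 in BM 3D and 39.4 and 29.98 in BM 3W, and was higher at 3 days than at 1 day or 3 weeks, without overlap. Ech1, a dienoyl-CoA isomerase of both organelles, was at 221 and 227 CPM in FH, 369 and 377 in FH Yap-/-, 39.6 and 32.6 in BM 3W and 89.5 and 185 in LBDXL 3W. Against FH in BM 3W the falls were 2.75 ± 0.25 for Decr1, 2.72 ± 0.28 for Eci1, 3.38 ± 0.34 for Eci2 and 2.63 ± 0.53 for Ech1 on the log2 scale.

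Among the peroxisomal genes, the bifunctional hydratase and dehydrogenase Ehhadh is a classical PPAR-alpha target. It was at 460.0 and 459 CPM in FH, 758 and 779.9 in FH Yap-/-, 25.6 and 29.8 in BM 1D, 25.9 and 30.7 in BM 3D and 20.9 and 10.002 in BM 3W. BM 3W Yap-/- was at 98.2 and 80.4 CPM and LBDXL 3W at 67.5 and 203, all above BM 3W and below FH. Ehhadh fell by 4.89 ± 0.53 (adjusted p = 3.22e-05) in BM 3W against FH. It rose by 3.13 ± 0.49 (adjusted p = 6.26e-04) in LBDXL 3W and rose by 2.53 ± 0.48 (adjusted p = 0.00341) in BM 3W Yap-/- over BM 3W. Its fall in LBDXL 3W against FH was 1.76 ± 0.46 (adjusted p = 0.0206) on the log2 scale, and it was -1.17 (adjusted p = 0.0801) without the first LBDXL library and -2.76 (adjusted p = 0.00148) without the second. The rise over BM 3W was 3.73 without the first LBDXL library and 2.13 without the second. Without the first BM 3W library, the rises were 3.76 in LBDXL 3W and 3.16 in BM 3W Yap-/-, and the fall in BM 3W was -5.52.

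Acox2 encodes the branched-chain oxidase that acts on bile acid intermediates. Its levels were 211 and 224 CPM in FH, 201 and 216 in FH Yap-/-, 114 and 157 in BM 1D, 148 and 189.8 in BM 3D and 50.7 and 25.4 in BM 3W. BM 3W Yap-/- held 203 and 196 CPM and LBDXL 3W 256 and 588. BM 3W lay furthest below FH, BM 3W Yap-/- lay just below it, and both LBDXL libraries lay above it. Acox2 fell by 2.51 ± 0.42 (adjusted p = 4.54e-04) in BM 3W against FH and did not pass in BM 1D (-0.68 ± 0.40 (adjusted p = 0.187)) or BM 3D (-0.36 ± 0.39 (adjusted p = 0.489)). It rose by 3.47 ± 0.43 (adjusted p = 1.86e-04) in LBDXL 3W and rose by 2.39 ± 0.42 (adjusted p = 0.00234) in BM 3W Yap-/- over BM 3W. Without the first BM 3W library these were 4.06 and 2.98 and the fall in BM 3W was -3.10, and without the second LBDXL library the rise there was 2.76. The difference between LBDXL 3W and FH was 0.96 ± 0.40 (adjusted p = 0.114) and did not pass, although it did with scaling by total counts and with limma on log2 FPKM.

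Hsd17b4, the bifunctional protein for branched chains, was at 723 and 738 CPM in FH, 83.2 and 107 in BM 1D, 107 and 88.3 in BM 3W, 235 and 234 in its Yap-/- counterpart and 334 and 491 in LBDXL 3W. It fell by 2.90 ± 0.30 (adjusted p = 2.55e-05) in BM 3W against FH and rose by 2.08 ± 0.29 (adjusted p = 3.40e-04) in LBDXL 3W over BM 3W. Pex11a, which acts in peroxisome division, was at 124 and 130.0 CPM in FH, 9.12 and 5.63 in BM 3W, 32.9 and 37.4 in its Yap-/- counterpart and 49.5 and 81.3 in LBDXL 3W. It fell by 4.11 ± 0.44 (adjusted p = 3.17e-05) in BM 3W against FH and rose by 3.15 ± 0.42 (adjusted p = 2.80e-04) in LBDXL 3W over BM 3W, without overlap between the groups.

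Acaa1a and Acaa1b encode near-identical peroxisomal thiolases, so reads could be split between them, and their values are uncertain. Acaa1b, whose exons also share 224 bases with Dlec1 on the opposite strand, was at 406 and 413 CPM in FH, 961 and 1011 in FH Yap-/-, 10.9 and 28.7 in BM 1D, 3.04 and 3.10 in BM 3D and 8.30 and 6.23 in BM 3W. It was at 15.2 and 32.3 CPM in BM 3W Yap-/-, with 3.49 and 46.7 in LBDXL 3W, where 1 library was near the BM 3D level and the other well above it. Acaa1b fell by 7.06 ± 1.07 (adjusted p = 5.89e-04) in BM 3D and fell by 4.03 ± 0.92 (adjusted p = 0.0113) in LBDXL 3W against FH, and the latter was -6.87 (adjusted p = 2.35e-04) without the second LBDXL library. Acaa1a was at 145 and 139.9 CPM in FH and 27.1 and 41.1 in BM 3W and fell by 2.06 ± 0.52 (adjusted p = 0.00615).

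Decr2, the peroxisomal dienoyl-CoA reductase, was at 380.0 and 371 CPM in FH, 22.5 and 18.6 in BM 3W, 31.8 and 30.3 in its Yap-/- counterpart and 38.2 and 67.3 in LBDXL 3W. It was low in all cultures, with a fall of 4.19 ± 0.30 (adjusted p = 4.78e-06) in BM 3W and 2.83 ± 0.28 (adjusted p = 1.31e-04) in LBDXL 3W against FH on the log2 scale. Crot, the carnitine octanoyltransferase that readies shortened chains for export to mitochondria, was at 555 and 563 CPM in FH, 50.3 and 62.4 in BM 1D, 159 and 143 in BM 3D, 163 and 189 in BM 3W, 268 and 233 in its Yap-/- counterpart and 161 and 159 in LBDXL 3W. Its lowest libraries were those of BM 1D, and LBDXL 3W was no higher than BM 3W. Crot fell by 3.31 ± 0.23 (adjusted p = 8.70e-06) in BM 1D against FH and rose by 1.42 ± 0.22 (adjusted p = 0.00705) from 1 day to 3 days. The difference between LBDXL 3W and BM 3W was -0.14 ± 0.21 (adjusted p = 0.636), with a 95% interval of -0.64 to 0.37. BM 3W Yap-/- lay above both without overlap, and its difference from BM 3W, 0.51 ± 0.21 (adjusted p = 0.0915), did not pass. By FPKM, Crot moved from rank 20 of the 32 in FH to rank 7 in BM 3W.

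Acot12, the thioesterase that splits acetyl-CoA in the cytosol, had the largest difference of the 32 genes between LBDXL 3W and BM 3W on all libraries, 4.48 on the log2 scale. Without the second BM 3W library it was 3.79, and that of Bdh1, at -4.61, was then larger in size. The promoter of Acot12 is shown because it held the closest match in the windows of 27 members to the direct repeat bound by PPAR-alpha with its partner RXR, written here as 2 copies of AGGTCA separated by 1 base and searched on both strands of the 300 bases from 250 before to 50 after each RefSeq start site. The 30 bases below are on the plus strand, 5' to 3', and the capitals mark the match. It lies on the minus strand at positions -110 to -98 from the start site at 91741521 and has 11 of the 12 letters. The annotated Acot12 gene begins further upstream, at 91741326, so the match lies within its annotated span.
Acot12, chr13:91741403-91741432: taggacccTGACCTCTCACCTcctaagcac
A match of at least 11 letters was present in 0.554% of 32851 promoters of the same length and in 1 of the 30 windows of 27 members. At 10 letters or more it was in 3 of the 30 (Acot12, Etfa and Acox2), against 3.86% of all promoters, and at 9 or more in 8 of the 30, against 24.6%. A match describes only the letters of these windows.

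The Acot12 levels were 348 and 349 CPM in FH, 299.9 and 281 in FH Yap-/-, 49.4 and 69.5 in BM 1D, 46.7 and 75.7 in BM 3D and 10.3 and 2.49 in BM 3W. BM 3W Yap-/- was at 62.1 and 44.5 CPM and LBDXL 3W at 164 and 120.4. The BM 3W libraries were the lowest of all 14, the second below the first, and LBDXL 3W lay between them and FH without overlap. Acot12 fell by 5.77 ± 0.61 (adjusted p = 2.86e-05) in BM 3W against FH, which is 54.5-fold lower, and the log2 value was -7.13 without the first BM 3W library and -5.08 without the second. It fell by 3.26 ± 0.54 (adjusted p = 0.00202) from 3 days to 3 weeks of BM culture. Against BM 3W it rose by 4.48 ± 0.57 (adjusted p = 2.15e-04) in LBDXL 3W and rose by 3.06 ± 0.54 (adjusted p = 0.00252) in BM 3W Yap-/-. Without the first BM 3W library these 3 differences were -4.62, 5.84 and 4.42, and without the second -2.57, 3.79 and 2.37. Acot12 shares 149 exonic bases with 4833422C13Rik on the opposite strand.

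Bdh1, the mitochondrial dehydrogenase that interconverts acetoacetate and 3-hydroxybutyrate, fell in the 2 comparisons with BM 3W in which most of the other genes rose. Its promoter is shown beside that of Acot12, 5' to 3' on the plus strand and without its annotated exons. Its closest match to the same repeat had 8 of 12 letters, as did those of Ppara, Cpt1a, Ehhadh and Hadha. The number of letters therefore does not set Bdh1 apart from these genes. A second RefSeq start site of Bdh1, whose window is not shown, had a match of 9 letters.
Bdh1, chr16:31422047-31422279: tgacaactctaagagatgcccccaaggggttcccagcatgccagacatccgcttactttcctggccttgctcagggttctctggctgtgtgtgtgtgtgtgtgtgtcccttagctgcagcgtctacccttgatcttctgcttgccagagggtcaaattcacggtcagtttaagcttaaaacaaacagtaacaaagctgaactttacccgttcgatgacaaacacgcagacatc
Bdh1 was at 265 and 259 CPM in FH and 447 and 465 in FH Yap-/-, and at 0.812 and 2.50 in BM 1D, 3.65 and 17.7 in BM 3D and 55.6 and 23.6 in BM 3W. It was at 6.997 and 5.23 CPM in BM 3W Yap-/-, with 2.64 and 1.87 in LBDXL 3W. Among the cultures the BM 3W libraries were the highest, without overlap with any other cultured library, and those of BM 1D and LBDXL 3W were the lowest. Bdh1 fell by 7.32 ± 0.84 (adjusted p = 8.67e-05) in BM 1D, fell by 2.73 ± 0.66 (adjusted p = 0.00471) in BM 3W and fell by 6.85 ± 0.82 (adjusted p = 3.59e-04) in LBDXL 3W against FH. Against BM 3W it fell by 4.12 ± 0.73 (adjusted p = 0.00135) in LBDXL 3W and fell by 2.69 ± 0.67 (adjusted p = 0.0128) in BM 3W Yap-/-. The fall in BM 3W Yap-/- did not pass without the first BM 3W library, where it was -1.94 (adjusted p = 0.0826), or without either BM 3W Yap-/- library. Without the first BM 3W library, the fall in LBDXL 3W against BM 3W was -3.37 and that in BM 3W against FH -3.48. The fall in BM 1D was -6.71 without the first BM 1D library and -8.32 without the second. From 1 day to 3 days the difference was 2.69 ± 0.72 (adjusted p = 0.0553), and from 3 days to 3 weeks 1.90 ± 0.65 (adjusted p = 0.0554), neither of which passed. Exons of Bdh1 and Gm15743 on the opposite strand share 293 bases, and the use of strand in counting was not given in the sources used here.

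With only the 4 fresh libraries in the fit, Vnn1 rose most in FH Yap-/- over FH, by 2.48 ± 0.08 (adjusted p = 5.20e-20) in edgeR's quasi-likelihood test. The next largest rises were 1.81 ± 0.08 (adjusted p = 2.40e-16) for Crat, 1.28 ± 0.05 (adjusted p = 1.70e-17) for Acaa1b, 0.97 ± 0.05 (adjusted p = 1.03e-14) for Acadm, 0.81 ± 0.06 (adjusted p = 1.96e-12) for Bdh1 and 0.75 ± 0.05 (adjusted p = 1.83e-12) for Ehhadh. Of the 4 falls, the largest were -0.62 ± 0.04 (adjusted p = 9.70e-13) for Acsl1 and -0.25 ± 0.06 (adjusted p = 7.08e-04) for Acot12. The other falls were -0.14 ± 0.05 (adjusted p = 0.0134) for Cpt1a and -0.14 ± 0.05 (adjusted p = 0.0291) for Ppara. These p-values rest only on the spread between the fresh libraries, which may be technical. The median factor between replicates was 1.03 in FH and 1.03 in FH Yap-/-. In the same fit, 18.1% of the 11356 genes tested rose and 19.4% fell. Calls in this fit therefore do not by themselves set these genes apart from others.

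Further genes of the pathway were taken from 4 lists of 98 tested genes. Over all 14100 genes, 26.1% fell and 33.0% rose in BM 3W against FH, 21.1% rose and 23.7% fell in LBDXL 3W over BM 3W, and 15.0% rose in BM 3W Yap-/- over BM 3W. Of 41 other peroxisomal genes, 35 fell in BM 1D, 37 in BM 3W and 17 in LBDXL 3W against FH, and the others did not pass. Over BM 3W, 31 rose in LBDXL 3W and 30 in BM 3W Yap-/-, and the others did not pass. Baat, which conjugates bile acids in peroxisomes, was at 342 and 338 CPM in FH, 4.92 and 5.36 in BM 1D, 12.1 and 1.41 in BM 3W, 42.4 and 45.3 in its Yap-/- counterpart and 261 and 290.3 in LBDXL 3W, and rose by 5.36 ± 0.74 (adjusted p = 3.28e-04) in LBDXL 3W over BM 3W. Nudt7, a peroxisomal hydrolase of coenzyme A, was at 1105 and 1093 CPM in FH and 203 and 221 in FH Yap-/-, and fell by 2.37 ± 0.31 (adjusted p = 0.00774).

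Of 20 genes of fatty acid activation and entry, 11 fell and 3 rose in BM 3W against FH, and 11 rose and 3 fell in LBDXL 3W over BM 3W. Acsm1, a medium-chain acyl-CoA synthetase, was at 797 and 789 CPM in FH, 8.99 and 3.50 in BM 3W, 69.1 and 69.96 in its Yap-/- counterpart and 104 and 274 in LBDXL 3W, and rose by 4.92 ± 0.56 (adjusted p = 1.09e-04) in LBDXL 3W over BM 3W. Acot9, a mitochondrial thioesterase, moved the other way, from 2.47 and 2.22 CPM in FH to 143 and 165 in BM 3D and 41.4 and 43.4 in BM 3W, and rose by 6.04 ± 0.46 (adjusted p = 2.19e-05) in BM 3D. Of 28 partners, coactivators and targets of PPAR-alpha, 18 fell and 3 rose in BM 3W against FH, and 14 rose and 2 fell in LBDXL 3W over BM 3W. Slc27a5, which activates bile acids and very long chains, was at 1355 and 1332 CPM in FH, 16.2 and 2.37 in BM 3W and 145 and 711 in LBDXL 3W, and rose by 5.53 ± 0.99 (adjusted p = 0.00142) in LBDXL 3W over BM 3W.

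Of 9 genes of ketone body synthesis, use and transport, 6 fell and 2 rose in BM 3W against FH, and 5 rose and 2 fell in LBDXL 3W over BM 3W. Oxct1, which lets tissues outside the liver use ketone bodies and is scarce in hepatocytes, was at 5.25 and 3.48 CPM in FH, 7.72 and 32.1 in BM 1D, 26.7 and 45.02 in BM 3D and 78.2 and 84.6 in BM 3W, and at 14.2 and 14.4 in BM 3W Yap-/-, with 3.65 and 5.98 in LBDXL 3W. It rose by 4.22 ± 0.60 (adjusted p = 1.76e-04) in BM 3W against FH, fell by 4.08 ± 0.59 (adjusted p = 4.35e-04) in LBDXL 3W against BM 3W and fell by 2.51 ± 0.55 (adjusted p = 0.00670) in BM 3W Yap-/- against BM 3W. The BM 3W libraries were the highest of all 14, as they were for the summed stellate cell, cholangiocyte and macrophage markers. The part of those cells in the Oxct1 values was not tested.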

How the data were processed

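The authors deposited raw read counts and FPKM for the genes of 14 libraries. GRCm38.p6, HISAT2, HTSeq, Cufflinks, DESeq and Trimmomatic are named in the submitters' processing notes, with roles, versions and settings not given in the sources used here. Libraries were made with a TruSeq Stranded mRNA kit, per the labels' protocols. The use of strand in counting was not given either, so members whose exons overlap those of another gene (9 of the 32, by 27 to 293 bases in GENCODE M21) are uncertain. The symbols of 27 genes altered by a spreadsheet were restored from gene IDs.

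Counts were fitted in edgeR 4.0.16 (R 4.3.3) with all 14 libraries, 1 mean per group, filterByExpr, TMM scaling and the quasi-likelihood F-test with 7 residual degrees of freedom. Benjamini-Hochberg adjustment ran over 14100 genes, and a gene "rose", "fell" or "passed" at an adjusted p under 0.05. Fold changes are log2 with standard errors from the F statistic. Deposited FPKM served to compare levels between genes. The code was tested on simulated counts. Replicates of a group differed by more than sampling noise (chi-square per degree of freedom of 4.04 or more in each group), and TMM factors ran from 0.648 to 1.69. Alternatives were DESeq2 1.42.0 size factors and Wald test, total counts, no filter, compared groups only, a replicate block, limma 3.58.1 on log2 FPKM with a pseudocount of 1 or 0.1 (genes averaging 0.5 FPKM or more), and leaving out each library. Sequences came from RefSeq for GRCm38.p6, with 27 members matched and chromosome 18 not used.

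The members and lists were chosen with earlier results of these data known. Any member could be named. From the 4 pathway lists, the 3 largest rises and falls past the threshold in each comparison that reached a mean of 10 CPM in either group, and genes that moved against their list, could be named. Some single genes of the lists are not reported by name here.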

Additional observations from a re-analysis of the deposited data

Results flagged for a closer look

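The log2 fold change between Yap-/- cells and their controls differed between fresh cells and BM 3W for 7 of the 32 genes. The test was the interaction term of edgeR's quasi-likelihood model with 2 libraries per group. Of the 7 terms 5 were positive and 2 negative, while 8.04% of all 14100 genes had a positive and 8.84% a negative term. For Acot12, the cytosolic acetyl-CoA thioesterase, the difference was 3.32 ± 0.72 on the log2 scale (adjusted p = 0.0127), from -0.26 in fresh cells and 3.06 after 3 weeks of BM culture. For Acsl1, the long-chain acyl-CoA synthetase, it was 2.89 ± 0.64 on the log2 scale (adjusted p = 0.0136), from -0.63 in fresh cells and 2.26 after 3 weeks of BM culture. For Acox2, the branched-chain oxidase, it was 2.45 ± 0.57 on the log2 scale (adjusted p = 0.0160), from -0.06 in fresh cells and 2.39 after 3 weeks of BM culture. For Pex11a, the peroxisome division factor, it was 2.19 ± 0.56 on the log2 scale (adjusted p = 0.0233), from 0.06 in fresh cells and 2.25 after 3 weeks of BM culture. For Etfb, the beta subunit of the electron transfer flavoprotein, it was 1.86 ± 0.44 on the log2 scale (adjusted p = 0.0179), from 0.11 in fresh cells and 1.97 after 3 weeks of BM culture. These 5 genes were higher in BM 3W Yap-/- than in BM 3W without overlap between the libraries. The terms were negative for Bdh1, the ketone body dehydrogenase, at -3.49 ± 0.91 on the log2 scale (adjusted p = 0.0263), from 0.80 in fresh cells and -2.69 after 3 weeks of BM culture. They were also negative for Vnn1, the pantetheinase, at -2.54 ± 0.53 on the log2 scale (adjusted p = 0.0112), from 2.48 in fresh cells and -0.06 after 3 weeks of BM culture. Summed hepatocyte markers were 3396 and 32777 CPM in the BM 3W libraries and 100002 to 115827 in BM 3W Yap-/-, and their part in these terms was not tested. Mean Yap1 was 24.8 CPM in FH Yap-/- against 92.6 in FH, and 7.20 in BM 3W Yap-/- against 87.9 in BM 3W. More Yap1 thus remained in the fresh cells, and in these terms its remaining level and culture cannot be told apart. None of the 7 terms passed under every alternative tried.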

How the results depend on the processing

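Of the gene-level values under the alternatives, 7523 kept their side of the threshold, 372 lost a call and 201 gained a call. Among those that passed in the main fit or the alternative, 0 changed direction. Changes of direction in genes that passed in neither were not counted. Of the summary counts and medians, 62 moved beyond a set margin. All calls held under every alternative against FH for 27 of 30 genes at BM 1D, 24 of 28 at BM 3D, 26 of 31 at BM 3W and 11 of 20 at LBDXL 3W. Against BM 3W they held for 14 of 26 at LBDXL 3W and 7 of 18 at BM 3W Yap-/-. They held for 25 of 27 in BM 3W Yap-/- against FH Yap-/-, 4 of 12 from 3 days to 3 weeks, and for none of the 7 from 1 day to 3 days, the 2 in FH Yap-/- or the 7 interaction terms. With total counts in place of TMM, 7 genes passed from 3 days to 3 weeks (12 with TMM) and 9 in BM 3W Yap-/- against BM 3W (18 with TMM). That scaling raises the median of all genes against FH by 0.92 in BM 1D, 0.94 in BM 3D, 1.29 in BM 3W and 0.47 in LBDXL 3W, and in BM 3W against FH it calls 9282 genes higher and 1364 lower where TMM calls 4653 and 3675. The members' median in BM 3W is then -1.53. The DESeq2 Wald test passed 11 genes from 1 day to 3 days (7 by edgeR). With only the compared groups in the fit, 0 passed from 1 day to 3 days, 6 from 3 days to 3 weeks, 25 in FH Yap-/- and 16 interaction terms. Without the first LBDXL 3W and second BM 3W libraries together, an alternative chosen after seeing the data, 11 passed from 1 day to 3 days and 6 from 3 days to 3 weeks. Leaving out 1 library at a time gave 1 to 10 genes from 1 day to 3 days, 4 to 14 from 3 days to 3 weeks, 9 to 23 in BM 3W Yap-/- against BM 3W, 0 to 2 in FH Yap-/- and 1 to 10 interaction terms. A group left with 1 library was assumed to vary like the others, and the cause of these changes was not tested. The labels do not say whether a shared replicate number marks a shared animal or culture. The correlation of same-numbered deviations was 0.49 between BM 1D and BM 3D and 0.38 between BM 3W and its Yap-/- counterpart. It was -0.04 to 0.09 between the other compared groups, and the cause of these correlations was not tested. With a replicate block, 30 genes passed in BM 1D, 29 in BM 3D, 31 in BM 3W and 25 in LBDXL 3W against FH, 6 from 1 day to 3 days, 14 from 3 days to 3 weeks, 27 in LBDXL 3W and 18 in BM 3W Yap-/- against BM 3W, 2 in FH Yap-/-, 29 in BM 3W Yap-/- against FH Yap-/- and 9 interaction terms.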

Other observations

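Some genes that handle fatty acids or ketone bodies outside the 32 were higher in 1 or more cultures than in FH. Cd36, a fatty acid receptor of the cell surface, was at 25.6 and 18.1 CPM in FH, 4.02 and 24.00 in BM 1D, 52.6 and 149 in BM 3D, 138 and 142 in BM 3W and 79.7 and 201 in LBDXL 3W. It rose by 2.68 ± 0.73 (adjusted p = 0.00919) in BM 3W and rose by 2.68 ± 0.73 (adjusted p = 0.0251) in LBDXL 3W against FH by edgeR's quasi-likelihood test. By the same test it rose by 2.21 ± 0.72 (adjusted p = 0.0311) in BM 3D. Cd36 is also expressed by macrophages and endothelial cells. Summed Kupffer cell and macrophage markers were at 73.4 to 101 CPM in FH, 772 to 939 in BM 3W and 1.96 to 2.66 in LBDXL 3W. The part of either cell type in the Cd36 values was not tested. Slc27a1, a fatty acid transport protein, was at 8.91 and 7.68 CPM in FH, 24.2 and 32.2 in BM 3W, 5.64 and 6.49 in its Yap-/- counterpart and 4.70 and 3.69 in LBDXL 3W, and rose by 1.76 ± 0.44 (adjusted p = 0.00521) in BM 3W against FH, while it was below FH in the other 2 groups of 3 weeks. Slc16a6, a monocarboxylate transporter that carries ketone bodies out of hepatocytes, was at 8.99 and 7.04 CPM in FH, 29.9 and 35.7 in BM 1D and 19.1 and 22.7 in BM 3W. Its mean in LBDXL 3W was 21.3 CPM. Against FH it rose by 2.03 ± 0.40 (adjusted p = 0.00226) in BM 1D and by 1.41 ± 0.40 (adjusted p = 0.0284) in LBDXL 3W.

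Acsm3, a medium-chain acyl-CoA synthetase, was at 344 and 321 CPM in FH, 2.03 and 3.23 in BM 1D, 11.4 and 2.34 in BM 3W, 32.8 and 26.1 in its Yap-/- counterpart and 84.6 and 212 in LBDXL 3W, and rose by 4.44 ± 0.66 (adjusted p = 5.01e-04) in LBDXL 3W over BM 3W. In fresh cells, Aacs, the cytosolic enzyme that returns acetoacetate to coenzyme A for lipid synthesis, was at 99.8 and 91.2 CPM in FH and 347 and 369.8 in FH Yap-/-, and rose by 1.91 ± 0.32 (adjusted p = 0.0218). Acot3, a peroxisomal thioesterase, was at 71.4 and 66.2 CPM in FH and 257 and 249.9 in FH Yap-/-, and rose by 1.88 ± 0.32 (adjusted p = 0.0242), while all cultured libraries lay at or below 1.21 CPM.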
